A study of Danio rerio with 12 samples.

Results

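Cadherins, protocadherins and catenins were taken from the gene table by symbol. The rule kept, ignoring case, every symbol that starts with cdh and a digit or with cdhr, pcdh, dsc, dsg, jup, ctnna, ctnnd or is ctnnb1, and it found 97 of 31953 genes. RNA had been sequenced from dissected clusters of dorsal forerunner cells (DFCs), the precursors of the zebrafish left-right organizer, at 90% epiboly. All embryos carried the Tg(sox17:GFP) reporter and were injected at the 1-cell stage. The first group of 4 libraries received a morpholino against vgll4l (Vgll4l knockdown). The second 4 received morpholinos against yap1 and wwtr1 together (Yap/Taz knockdown), and 4 control libraries received a standard control morpholino. By the methods, the total amount of morpholino was smaller in Vgll4l embryos than in Yap/Taz and control embryos. Vgll4l is a transcription cofactor of the Vestigial-like family, and Yap and Taz (encoded by wwtr1) are cofactors of TEAD factors in Hippo signaling. The injections reached the whole embryo, so a cluster could differ through its own cells or through its surroundings. The labels describe single clusters dissected under fluorescence, and the methods call the 4 libraries of a group biological replicates. Clusters from the knockdown embryos are called morphants below.

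Cadherins are transmembrane proteins that join neighbouring cells through calcium-dependent binding of their extracellular repeats. The cytoplasmic tail of classical cadherins binds β-catenin or plakoglobin, which bind α-catenin and through it actin, while p120 catenin (δ-catenin) binds nearer the membrane and keeps cadherins at the cell surface. β-catenin also carries the canonical Wnt signal in the nucleus. In DFCs, which migrate as a cohesive group, adhesion between the cells is known to depend on cadherins. Protocadherins lack the catenin-binding tail of classical cadherins, and the clustered ones lie in tandem arrays of similar genes.

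The 97 genes were sorted into 9 catenins, 4 type I cadherins, 10 type II cadherins, 7 other cadherins, 2 desmosomal cadherins, 15 non-clustered protocadherins and 45 clustered protocadherins. The other 5 genes met the rule by their letters alone. These are dscama, dscamb and dscaml1 of the immunoglobulin family, dscc1, which encodes a subunit of a clamp loader, and dscr3, which encodes a subunit of the retriever complex. They were kept as members but are described apart. In all 12 libraries 30 members were at 0, among them 27 clustered protocadherins. Another 17 were detected with at most 5 reads in a group, and 50 were tested, since their normalized counts averaged 1 or more over the 12 libraries. A further 17 genes that carry no symbol in the table have a name that meets the rule in a reference table, and they were not members.

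Reads assigned to genes numbered 8698990 to 11235726 in Vgll4l libraries, 9071323 to 10774775 in Yap/Taz libraries and 4487894 to 6148871 in control libraries. Vgll4l replicate 2 stood apart from the other Vgll4l libraries: its squared differences from them were 6.89 to 10.4 times what counting noise gives, against 1.65 to 2.58 times among the other 3. It was the Vgll4l library nearest to control for 17 of the 32 members that passed the test in Vgll4l morphants (53.1%) and for 54.4% of all genes that passed. The Yap/Taz pairs varied by 1.45 to 1.76 times counting noise. Control replicates 1 and 2 (1.68 times) and 3 and 4 (1.53 times) were closer to each other than pairs across them (4.28 to 6.03 times). P-values measure only the spread between these libraries, which may in part be technical, and both knockdowns were compared with the same 4 control libraries.

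The targeted genes and the cell type label were looked at first. vgll4l had 1033, 1107, 1090.5 and 1016 normalized counts (reads scaled by a size factor per library) in Vgll4l clusters, 1574, 1677, 1615 and 1556 in Yap/Taz clusters, and 7266, 7057, 6759.6 and 6694 in control clusters. yap1 averaged 1784 ± 30.5 in Yap/Taz clusters and 2250.4 ± 116 in control clusters (SD, n = 4 each), and wwtr1 averaged 8.97 ± 2.05 in Yap/Taz clusters and was at 0 in every control library. Morpholinos block splicing or translation, so the RNA of their targets does not measure how far a protein was depleted. The listed DFC markers sox17 and sox32 were present in all libraries. They averaged 8628 ± 407 and 12952 ± 378 in Vgll4l clusters, and 9686 ± 100.3 and 12884 ± 193 in Yap/Taz clusters. In control clusters they averaged 18139.7 ± 821 and 27536 ± 363.

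Marker genes of other tissues moved with the groups. The 12 listed enveloping layer genes held 3.95 to 4.50% of all counts in Vgll4l libraries, 0.775 to 0.783% in Yap/Taz libraries and 0.530 to 0.568% in control libraries. Of these 12, 10 rose and 1 fell in Vgll4l morphants, and 1 rose and 3 fell in Yap/Taz morphants. The 14 yolk syncytial layer genes held 0.623 to 0.656%, 1.36 to 1.39% and 0.204 to 0.226% in Vgll4l, Yap/Taz and control libraries, and the 12 DFC markers 0.452 to 0.471%, 0.615 to 0.617% and 1.62 to 1.67%. The DFC markers include vgll4l, the target in Vgll4l embryos. Of 11 DFC markers tested, 11 fell in Vgll4l morphants and 9 in Yap/Taz morphants, and none rose. From these data the paper had already reported sox17, sox32, tbxta, tbx16, foxj1a and rfx2 as lower in both knockdowns. By in situ hybridization it had found cftr and cldn5a strongly decreased or absent in Vgll4l morphants. The counts of DFC markers are therefore no independent measure of DFC content. Of the yolk syncytial layer genes 10 rose and 3 fell in Vgll4l morphants, and 9 rose and 2 fell in Yap/Taz morphants. The 11 epidermal markers held 0.170 to 0.176% in Vgll4l libraries, 0.0959 to 0.0984% in Yap/Taz libraries and 0.0248 to 0.0265% in control libraries, and the 10 paraxial mesoderm markers 0.0648 to 0.0702%, 0.0250 to 0.0261% and 0.0248 to 0.0274%. In Vgll4l morphants 10 of 11 epidermal and 7 of 9 tested paraxial genes rose and none fell. In Yap/Taz morphants 5 epidermal genes rose and 4 fell (median log2 fold change -0.03), and 3 paraxial genes rose and 4 fell (-0.89). The paraxial genes include pcdh8, itself a member, which is among the rises in both knockdowns. Of 11 neural genes 4 rose and 2 fell in Vgll4l morphants, and 2 rose and 5 fell in Yap/Taz morphants. Of 8 notochord and endoderm genes tested 4 rose and 1 fell in Vgll4l morphants, and 3 rose and none fell in Yap/Taz morphants. Among the yolk syncytial layer markers, mxtx2 was at 0 in every Yap/Taz library and in 3 of 4 control libraries. The part of these tissues in the results below was not tested. In whole clusters, fewer cells of a type and less RNA per cell cannot be told apart.

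In Vgll4l morphants 22 of the 50 members tested fell and 10 rose, and in Yap/Taz morphants 22 fell and 15 rose. To pass, a gene needed a limma p below 0.05 after Benjamini-Hochberg adjustment and a log2 fold change of 1 or more in either direction. Over all 17609 genes tested, 71.4% passed in Vgll4l morphants (30.5% higher, 40.9% lower) and 68.7% in Yap/Taz morphants (30.0% higher, 38.7% lower), so the share of members that passed was near that of all genes. The median log2 fold change of the members was -0.73 in Vgll4l morphants and -0.69 in Yap/Taz morphants, against -0.26 and -0.27 for all genes. Between the knockdowns, 12 members were higher in Vgll4l clusters and 18 lower, where 63.2% of all genes passed (30.0% higher, 33.2% lower). The libraries of the 2 groups did not overlap for 35 members in the Vgll4l comparison (79.2% of all genes) and 44 in the Yap/Taz comparison (80.9% of all genes), and between the knockdowns for 36 (75.3% of all genes). Scaling by the trimmed mean of M-values (TMM) moved the median of all genes to -0.08 in Vgll4l morphants and -0.15 in Yap/Taz morphants.

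Because both comparisons with control share the 4 control libraries, the members are described below by the values of each comparison. Counts of classes and gene lists, above and below, are to be read beside the shares of all genes that passed. pcdh19 rose in Vgll4l morphants and fell in Yap/Taz morphants, while pcdh2g28, pcdh10a and dscr3 did the reverse.

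**Figure D1:**
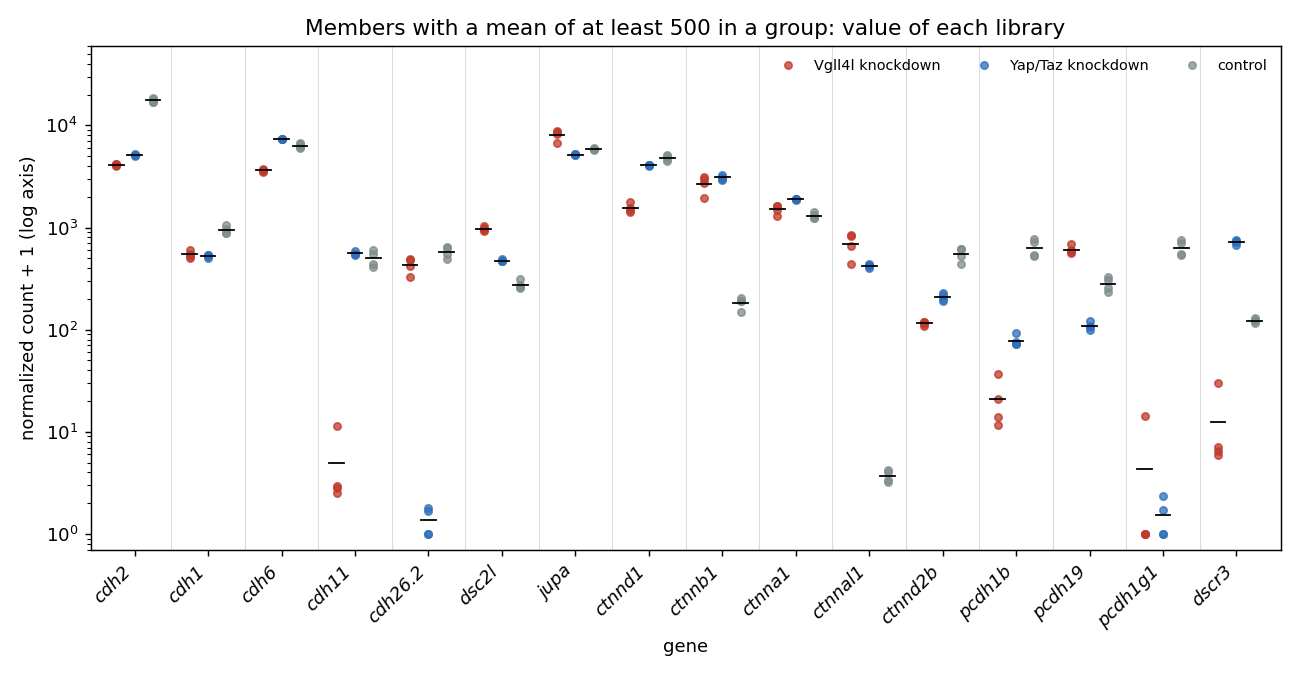
Normalized count + 1 (log axis) of the 16 members with a mean of at least 500 in a group, as 1 point per library, with Vgll4l (red), Yap/Taz (blue) and control (grey) side by side and a line at the mean. cdh2 lies at 4005 to 5229 in the knockdown libraries and at 16760.3 to 18406 in control, while ctnnb1 and ctnnal1 are high in both knockdowns and cdh11 is low in Vgll4l libraries.

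Among the type I cadherins, cdh2 and cdh4 fell in both knockdowns. cdh2 (ENSDARG00000018693), which encodes N-cadherin, had 4060.5, 4005, 4197 and 4142 normalized counts in Vgll4l clusters, 5182, 5092, 5229 and 4999 in Yap/Taz clusters, and 18331, 18406, 16883 and 16760.3 in control clusters. All control libraries lay above all knockdown libraries, and replicates of a knockdown differed little. The log2 fold change was -2.10 in Vgll4l morphants (standard error 0.03, adjusted p = 6.8e-15) and -1.78 in Yap/Taz morphants (adjusted p = 3.8e-14). The knockdowns differed by -0.32, under the fold threshold.

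cdh1 (ENSDARG00000102750), which encodes E-cadherin, the cadherin of early epithelia, had 506, 605, 544 and 523 normalized counts in Vgll4l clusters, 524, 539, 542 and 502 in Yap/Taz clusters, and 966, 1049.8, 876 and 881 in control clusters. The control libraries were again all above the knockdown libraries. The log2 fold changes of -0.79 in Vgll4l morphants and -0.84 in Yap/Taz morphants stayed under the threshold of 1, with adjusted p = 1.3e-07 and 7.5e-08 by limma and a standard error of 0.07. The knockdowns differed by 0.05 (adjusted p = 0.59).

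The ratio of cdh2 to cdh1, taken within each library, was 6.62 to 8.03 in Vgll4l libraries, 9.45 to 9.96 in Yap/Taz libraries and 17.5 to 19.3 in control libraries. The groups did not overlap. An exact two-sided permutation test gave p = 0.0286 for each pair of groups, the smallest that 4 against 4 allows. It was also 0.0286 after adjustment over 6 tests of ratios. The ratios were chosen after their values were seen, so these p-values add no support. The ratio of counts is not corrected for gene length, so it compares libraries and not the levels of the proteins or transcripts.

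cdh4 (ENSDARG00000015002), which encodes R-cadherin, had only 3 reads in Vgll4l clusters, all in replicate 2, and a single read in Yap/Taz clusters, against 157, 149.5, 136 and 87.6 normalized counts in control clusters. It was 194-fold lower in Vgll4l clusters (95% counting interval 65.8 to 943) and 715-fold lower in Yap/Taz clusters (128 to 28317). Such intervals sum the reads of a group and cover counting error only. They leave out the spread between libraries, as where all Vgll4l reads lie in replicate 2, and amplification without molecular identifiers. As statements about a group they are therefore too narrow. The muscle cadherin gene cdh15 was at 0 in all libraries.

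**Figure D2:**
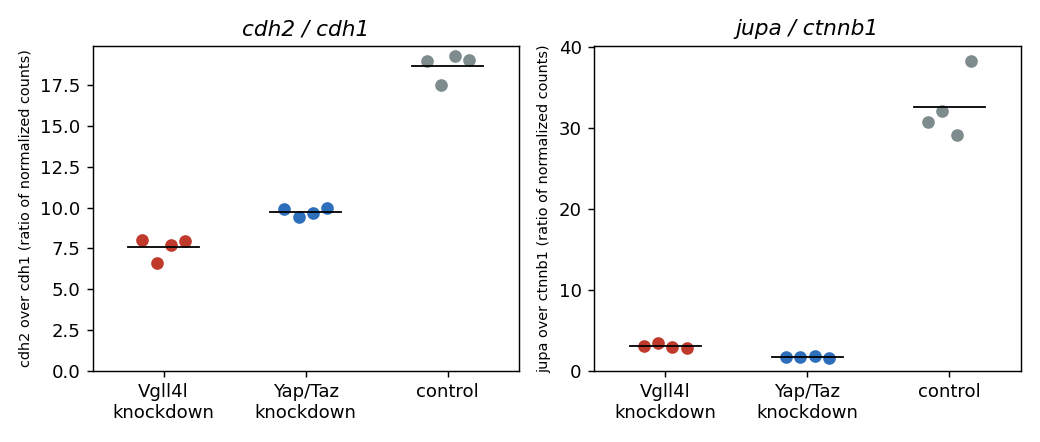
Ratio of normalized counts within each library for cdh2 over cdh1 (left) and jupa over ctnnb1 (right), with 4 points per group in the order Vgll4l, Yap/Taz, control and a line at the mean. Both ratios are lower in all knockdown libraries, at 6.62 to 9.96 against 17.5 to 19.3 for cdh2 over cdh1 and 1.55 to 3.45 against 29.1 to 38.3 for jupa over ctnnb1.

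Of the 8 type II cadherins tested, 1 was higher and 4 were lower in Vgll4l than in Yap/Taz clusters. Against control, 4 fell and none rose in Vgll4l morphants, and 4 fell and 1 rose in Yap/Taz morphants. cdh6 (ENSDARG00000014522), which encodes K-cadherin, had 3634, 3536, 3760.0 and 3574 normalized counts in Vgll4l clusters, 7378, 7354, 7422 and 7359.8 in Yap/Taz clusters, and 6662, 6630.1, 5948 and 6097 in control clusters. The Vgll4l libraries were all below and the Yap/Taz libraries all above the control libraries. Against control neither change reached the threshold (log2 fold change -0.80 in Vgll4l morphants and 0.22 in Yap/Taz morphants), while the knockdowns differed by -1.03 (standard error 0.04, adjusted p = 1.2e-11). That difference lies at the threshold and was -0.95 with TMM scaling and -0.96 with edgeR, where it did not pass.

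cdh11 (ENSDARG00000021442), which encodes OB-cadherin, a mesenchymal cadherin in mammals, had 1.53, 10.4, 1.95 and 1.84 normalized counts in Vgll4l clusters, 536, 592, 549 and 555 in Yap/Taz clusters, and 549, 604, 413 and 435 in control clusters. It was almost undetected in Vgll4l libraries and at the control level in Yap/Taz libraries, with the highest Vgll4l value in replicate 2. Its RNA fell by 6.97 on the log2 scale in Vgll4l morphants (standard error 0.37, adjusted p = 4.2e-10). Its log2 fold change was 0.17 in Yap/Taz morphants (adjusted p = 0.68), and the knockdowns differed by -7.15 (adjusted p = 4.2e-10).

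cdh12a (ENSDARG00000078226) was high in Yap/Taz clusters alone, with 3 reads in Vgll4l clusters, all in replicate 2, 109, 125, 98.2 and 106 normalized counts in Yap/Taz clusters and at most 4.74 normalized counts in a control library. The transcript rose by 5.53 on the log2 scale in Yap/Taz morphants (adjusted p = 2.0e-07), and was 163-fold lower in Vgll4l than in Yap/Taz clusters (55.4 to 792). In Vgll4l morphants its log2 fold change was -0.76, which did not pass, and it was -1.25 without Vgll4l replicate 2 and -1.18 without control replicate 2, where it passed. cdh24a (ENSDARG00000075960) fell in both knockdowns, with 2.87 ± 1.39 in Vgll4l clusters, 14.2 ± 4.56 in Yap/Taz clusters and 82.6 ± 9.28 in control clusters (log2 fold changes -4.52 and -2.50). The knockdowns differed by -2.02, and by -0.90 with a pseudocount of 10, where it did not pass.

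Below a mean of 50, cdh24b and cdh10a fell in both knockdowns. cdh10a was at 0 in all 8 knockdown libraries and had 22.4 ± 3.93 normalized counts in control libraries, so that it was at least 33.4-fold lower in Vgll4l and at least 41.1-fold lower in Yap/Taz clusters (floor of 3 reads over a group). cdh7 fell in Yap/Taz morphants, to 0 in every library, a call lost with a pseudocount of 10 (-0.76). cdh5, the vascular endothelial cadherin gene, was at most 6.10 in any library and passed in no comparison of the main fit. Its log2 fold change was -1.14 in Yap/Taz morphants (adjusted p = 0.052 by limma) and 1.13 between the knockdowns (0.057). In each of these comparisons it stayed uncalled in only 16 of 21 alternatives. In the GRCz12tu assembly cdh6, cdh10a, cdh12a and cdh18a are neighbours, as are cdh8, cdh11 and cdh5. Their patterns differed within each run of neighbours: cdh18a and cdh8 had at most 1 read in a group, and cdh12a rose in Yap/Taz morphants where cdh10a was at 0.

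Of the other cadherins, cdh26.2 and cdh17 were close to absent from Yap/Taz clusters alone. cdh26.2 (ENSDARG00000087641), a relative of mammalian cadherin 26, had 422, 330.4, 494 and 483 normalized counts in Vgll4l clusters, 0.666, 0.798, 0 and 0 in Yap/Taz clusters, and 643, 624, 556 and 491 in control clusters. The Vgll4l and control libraries overlapped, and the Yap/Taz libraries held 2 reads in all. It was 1571-fold lower in Yap/Taz than in control clusters (434 to 12986, adjusted p = 4.4e-13 by limma) and 1189-fold higher in Vgll4l than in Yap/Taz clusters (329 to 9824). In Vgll4l morphants the log2 fold change was -0.43 (adjusted p = 0.081).

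cdh17 (ENSDARG00000005112), which encodes LI-cadherin, a cadherin without a catenin-binding tail, had 212 ± 49.6 normalized counts in Vgll4l clusters, 0.699 ± 0.944 in Yap/Taz clusters and 342 ± 76.6 in control clusters. Expression fell by 7.79 on the log2 scale in Yap/Taz morphants (standard error 0.33, adjusted p = 5.3e-11), and its log2 fold change in Vgll4l morphants was -0.69 (adjusted p = 0.069). cdhr1a (ENSDARG00000004643), a cadherin-related gene known from photoreceptors, had 2 reads in Vgll4l clusters, 67.3 ± 13.0 normalized counts in Yap/Taz clusters and 1 read in control clusters. It was 203-fold higher in Yap/Taz than in control clusters (36.3 to 8056). The hair-cell cadherin gene cdh23 had a single read in the series.

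The desmosomal cadherin dsc2l (ENSDARG00000039677), a desmocollin, had 925, 995, 1035 and 945 normalized counts in Vgll4l clusters, 468, 473, 467 and 487 in Yap/Taz clusters, and 311, 270.1, 255 and 258 in control clusters. The groups did not overlap. Its RNA rose by 1.83 on the log2 scale in Vgll4l morphants (standard error 0.07, adjusted p = 1.6e-11), had a log2 fold change of 0.80 in Yap/Taz morphants, under the threshold, and was higher in Vgll4l than in Yap/Taz clusters by 1.04 (adjusted p = 5.3e-09). The desmoglein gene dsg2l had 2 reads, both in control libraries. Desmosomes are typical of epithelia such as the enveloping layer, whose markers were most abundant in the Vgll4l libraries as given above, and their part in the dsc2l values was not tested.

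Of the 9 catenin genes, 2 rose and 5 fell in Vgll4l morphants, and 2 rose and 4 fell in Yap/Taz morphants. ctnnb1 (ENSDARG00000014571), which encodes β-catenin, had 2719, 1933, 2990.1 and 3101 normalized counts in Vgll4l clusters, 3019, 3147, 2923 and 3300.1 in Yap/Taz clusters, and 189, 188, 202 and 149 in control clusters. The knockdown libraries were all far above the control libraries, and Vgll4l replicate 2 was the lowest of them. The transcript rose by 3.86 on the log2 scale in Vgll4l morphants (standard error 0.13, adjusted p = 6.3e-12) and by 4.09 in Yap/Taz morphants (adjusted p = 3.8e-12), and the knockdowns differed by -0.23 (adjusted p = 0.13).

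Zebrafish have a second β-catenin gene, ctnnb2 (ENSDARG00000023472), that is not a member and whose sequence is close enough that short reads could be split between the pair. ctnnb2 also rose, to 85.8 ± 14.6 in Vgll4l clusters and 194 ± 16.2 in Yap/Taz clusters, against 3.19 ± 2.61 in control clusters (log2 fold changes 4.68 and 5.86). The sum of the pair was 2008 to 3187 in Vgll4l libraries, 3099.9 to 3501 in Yap/Taz libraries and 155 to 204 in control libraries. How reads shared by the pair were assigned or dropped was not tested.

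The plakoglobin gene jupa (ENSDARG00000070787), whose product takes the place of β-catenin in junctions and is shared with desmosomes, had 8328, 6658, 8895 and 8602 normalized counts in Vgll4l clusters, 5175, 5251, 5211 and 5107 in Yap/Taz clusters, and 5815, 6017, 5868 and 5713 in control clusters. Vgll4l libraries were above and Yap/Taz libraries below control without overlap, but the log2 fold changes of 0.46 in Vgll4l morphants and -0.17 in Yap/Taz morphants were under the threshold. The ratio of jupa to ctnnb1 was 2.77 to 3.45 in Vgll4l libraries, 1.55 to 1.78 in Yap/Taz libraries and 29.1 to 38.3 in control libraries. An exact two-sided permutation test gave p = 0.0286 for each pair of groups. This ratio was chosen after its values were seen, so the p-value adds no support. jupb, the paralog of jupa, fell in both knockdowns, with 2 reads in Vgll4l clusters, none in Yap/Taz clusters and 9.02 to 35.6 normalized counts in control libraries.

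ctnna1 (ENSDARG00000102441), which encodes αE-catenin, had 1492, 1289, 1609 and 1642 normalized counts in Vgll4l clusters, 1886, 1919, 1899 and 1854 in Yap/Taz clusters, and 1249.8, 1242, 1320.1 and 1414 in control clusters. Vgll4l and control libraries overlapped while the Yap/Taz libraries were all higher, and neither log2 fold change reached the threshold (0.20 in Vgll4l morphants, 0.53 in Yap/Taz morphants). ctnna2 (ENSDARG00000024785), the neural αN-catenin gene, fell to 15.3 ± 7.55 in Vgll4l clusters and to 2 reads in Yap/Taz clusters, against 99.2 ± 27.2 in control clusters. It was 264-fold lower in Yap/Taz clusters (72.4 to 2191), and the knockdowns differed (adjusted p = 3.0e-07).

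ctnnal1 (ENSDARG00000018162), which encodes α-catulin, a relative of α-catenin, had 664, 435, 835 and 827 normalized counts in Vgll4l clusters, 431, 435, 401 and 416 in Yap/Taz clusters, and 3.24, 3.05, 2.25 and 2.37 in control clusters. It was nearly absent from every control library, and Vgll4l replicate 2 lay at the Yap/Taz level. Expression rose by 7.50 on the log2 scale in Vgll4l morphants (standard error 0.19, adjusted p = 3.7e-13) and by 6.83 in Yap/Taz morphants (adjusted p = 9.5e-13).

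The p120 catenin gene ctnnd1 (ENSDARG00000078233) had 1537, 1795, 1469 and 1428 normalized counts in Vgll4l clusters, 4069, 4070.5, 4002 and 4101 in Yap/Taz clusters, and 5004, 5078, 4685 and 4493 in control clusters. The groups did not overlap, and the Vgll4l libraries stood far below the others. Its RNA fell by 1.63 on the log2 scale in Vgll4l morphants (standard error 0.06, adjusted p = 1.7e-11), its log2 fold change in Yap/Taz morphants was -0.24, and the knockdowns differed by -1.39 (adjusted p = 9.6e-11). ctnnd2b (ENSDARG00000003779), of the same family and known from neurons in mammals, had 114, 109, 117 and 117 normalized counts in Vgll4l clusters, 189.9, 196, 229 and 219.7 in Yap/Taz clusters, and 610.3, 615, 525 and 443 in control clusters. It fell in both knockdowns without overlap (log2 fold changes -2.24 and -1.38, adjusted p = 1.6e-10 and 2.6e-08). Its paralog ctnnd2a also fell in both, with 1 read in Vgll4l clusters, none in Yap/Taz clusters and 22.5 to 47.4 normalized counts in control libraries.

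**Figure D3:**
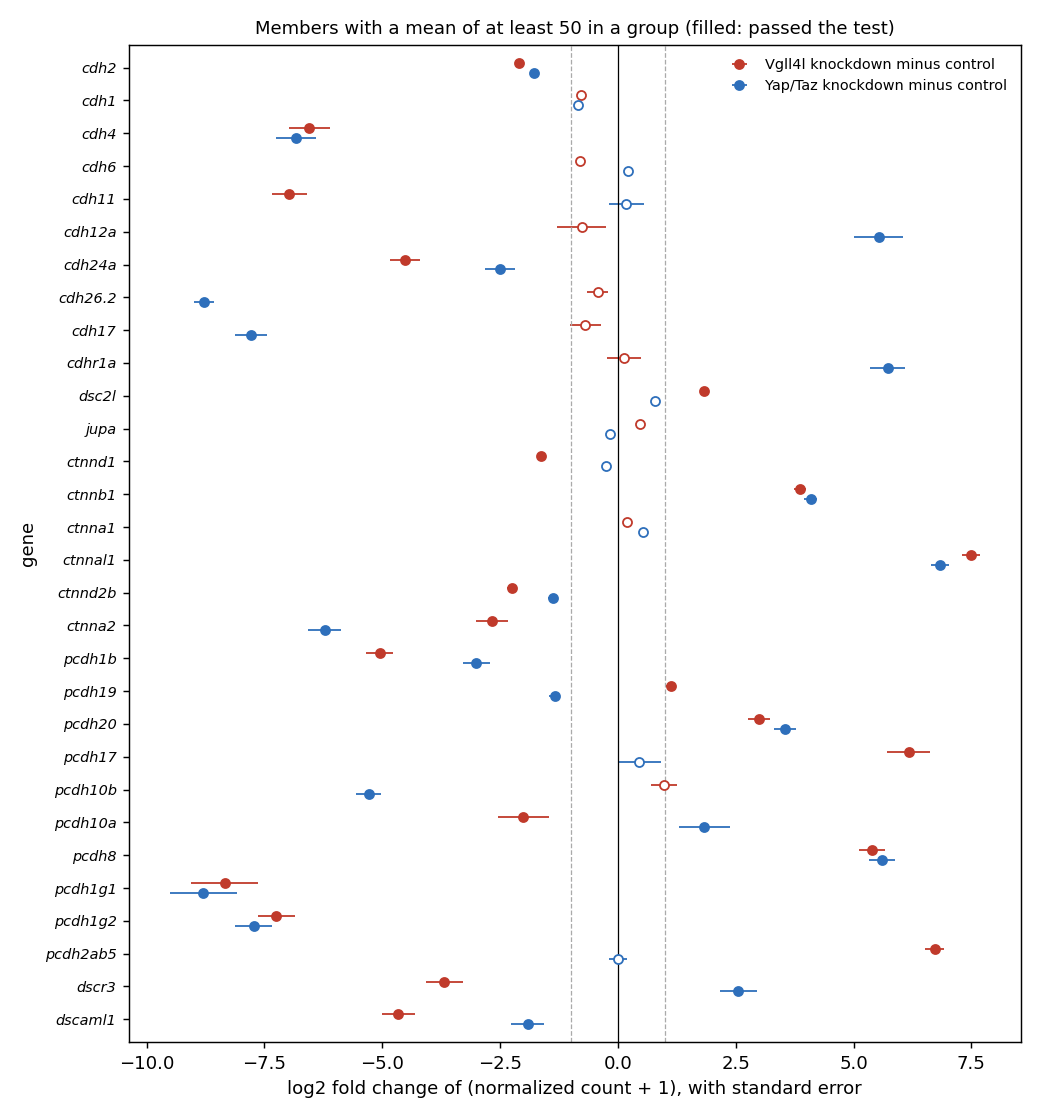
Log2 fold change of (normalized count + 1) against control, with its standard error, for the 30 members with a mean of at least 50 in a group. Vgll4l knockdown is red and Yap/Taz knockdown blue, filled points passed the test and dashed lines mark a change of 1. cdh11 and cdh26.2 each lie far from 0 in a single knockdown (-6.97 and -8.77, a size that depends on the pseudocount where a group had few reads), and pcdh19, pcdh10a and dscr3 lie on opposite sides of 0.

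Of 12 non-clustered protocadherins tested, 6 rose and 2 fell in Vgll4l morphants, and 6 rose and 3 fell in Yap/Taz morphants. Among them pcdh17, pcdh18a, pcdh7a, pcdh8, pcdh1a and PCDH9 averaged only 0 to 0.874 in control clusters. They passed the filter through their knockdown values and could hardly be called lower, so the rises depend in part on the filter. Of all genes, 30.5% rose and 40.9% fell in Vgll4l morphants, and 30.0% rose and 38.7% fell in Yap/Taz morphants. pcdh1b (ENSDARG00000036175) had 19.9, 35.9, 10.7 and 12.9 normalized counts in Vgll4l clusters, 91.9, 75.1, 71.5 and 70.8 in Yap/Taz clusters, and 763, 713, 532 and 526 in control clusters. It was lowest in Vgll4l libraries, where replicate 2 was again the highest, and the groups did not overlap. The transcript fell by 5.05 on the log2 scale in Vgll4l morphants (standard error 0.29, adjusted p = 8.4e-10) and by 3.01 in Yap/Taz morphants (adjusted p = 2.3e-07).

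pcdh19 (ENSDARG00000034344), which acts together with N-cadherin in the zebrafish neural plate, had 564, 571, 692 and 604 normalized counts in Vgll4l clusters, 108, 99.0, 106 and 122 in Yap/Taz clusters, and 324, 307, 253 and 233 in control clusters. The Vgll4l libraries were all above and the Yap/Taz libraries all below control. Expression rose by 1.13 on the log2 scale in Vgll4l morphants (standard error 0.11, adjusted p = 4.0e-07), fell by 1.34 in Yap/Taz morphants (adjusted p = 6.5e-08), and the knockdowns differed by 2.47 (adjusted p = 1.4e-10).

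The paralogs pcdh10a and pcdh10b moved differently. pcdh10a (ENSDARG00000099729) had 7.09 ± 6.57 normalized counts in Vgll4l clusters, 86.3 ± 8.07 in Yap/Taz clusters and 25.8 ± 14.1 in control clusters. Its RNA fell by 2.00 on the log2 scale in Vgll4l morphants (adjusted p = 0.0033) and rose by 1.84 in Yap/Taz morphants (adjusted p = 0.0060). The highest Vgll4l library (16.1) lay above the lowest control library (14.2). pcdh10b (ENSDARG00000102824) had 89.2 ± 12.5 in Vgll4l clusters, 1 read in Yap/Taz clusters and 45.6 ± 13.5 in control clusters, and was 248-fold lower in Yap/Taz than in control clusters (43.7 to 9849). In Vgll4l morphants its log2 fold change of 0.98 lay just under the threshold and passed with TMM scaling (1.20), with edgeR (1.18) and without control replicate 1 (1.16), Vgll4l replicate 2 (1.07) or Vgll4l replicate 4 (1.00).

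pcdh8 (ENSDARG00000006467), the paraxial protocadherin, which is also on the list of paraxial mesoderm markers, had 50.6 ± 7.67 normalized counts in Vgll4l clusters and 58.5 ± 5.19 in Yap/Taz clusters, against 1 read in control clusters. It was 151-fold higher in Vgll4l clusters (26.8 to 5991) and 176-fold higher in Yap/Taz clusters (31.3 to 6957). pcdh20 (ENSDARG00000101910) also rose in both, to 84.7 ± 12.4 in Vgll4l clusters and 125 ± 14.3 in Yap/Taz clusters, against 10.2 ± 4.06 in control clusters (log2 fold changes 2.99 and 3.55). pcdh17 (ENSDARG00000027041) rose in Vgll4l morphants alone, with 117 ± 5.68 in Vgll4l clusters, 1.52 ± 1.31 in Yap/Taz clusters and 3 reads in control clusters. It was 117-fold higher in Vgll4l than in control clusters (39.9 to 570.3).

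The 5 non-clustered protocadherins with lower means each rose in a single knockdown. pcdh15b and pcdh18a rose in Vgll4l morphants, and pcdh7a, PCDH9 and pcdh1a in Yap/Taz morphants. With a pseudocount of 10 the calls on PCDH9 (0.71) and pcdh1a (0.64) were lost. pcdh7a, the largest of these rises, had 1.14 ± 1.20 normalized counts in Vgll4l clusters, 48.5 ± 6.82 in Yap/Taz clusters and 1 read in control clusters. pcdh18a, the neighbour of pcdh10a in GRCz12tu, had 8.79 to 32.1 normalized counts in Vgll4l libraries and was at 0 in Yap/Taz libraries, where pcdh10a had its highest values.

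**Figure D4:**
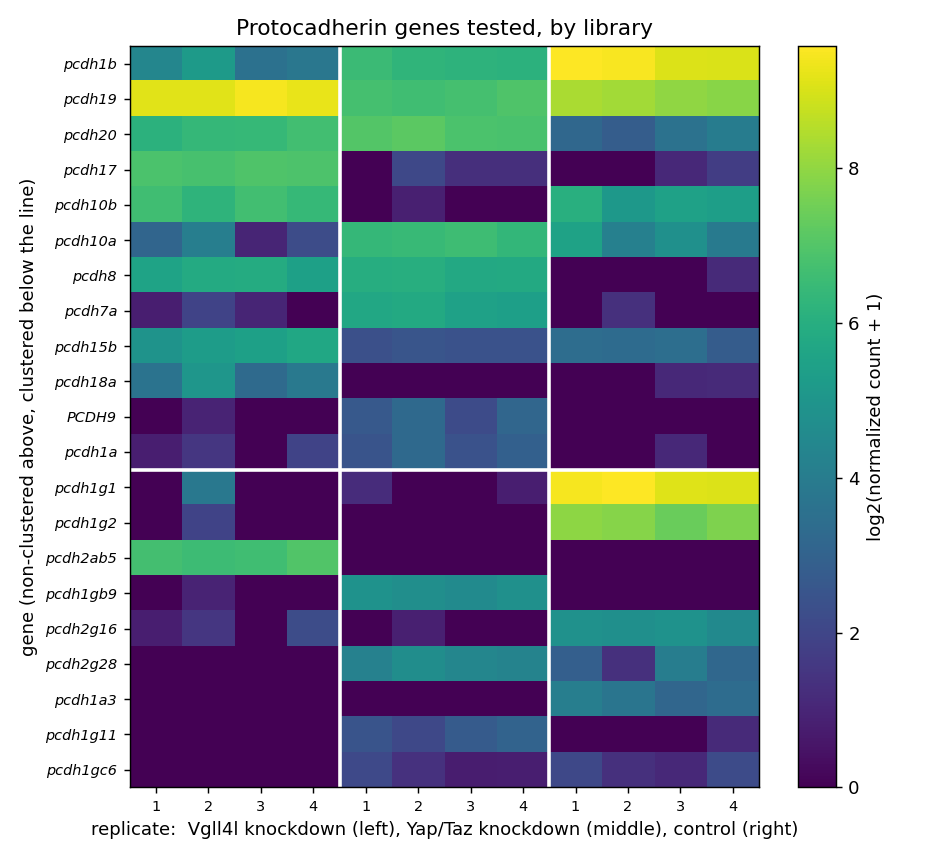
Heat map of log2(normalized count + 1) for the 21 protocadherin genes tested, by library, with non-clustered genes above and clustered genes below the white line and Vgll4l, Yap/Taz and control libraries from left to right. pcdh1g1 and pcdh1g2 are bright in the 4 control libraries only (542 to 746 and 168 to 244 normalized counts), and pcdh2ab5 in the 4 Vgll4l libraries only (92.5 to 126).

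Clustered protocadherins were mostly silent, with 27 of 45 at 0 everywhere and 9 tested. In Vgll4l morphants 1 rose and 6 fell, and in Yap/Taz morphants 3 rose and 4 fell. Because these genes lie in arrays of similar sequence, 50-bp reads could be assigned to the wrong copy or dropped, and values of single genes are uncertain. pcdh1g1 (ENSDARG00000104007) had 0, 13.2, 0 and 0 normalized counts in Vgll4l clusters, 1.33, 0, 0 and 0.730 in Yap/Taz clusters, and 699, 746, 550.1 and 542 in control clusters. The only reads of Vgll4l clusters were in replicate 2. The transcript fell by 8.34 on the log2 scale in Vgll4l morphants (adjusted p = 6.3e-08), with a log2 fold change of -9.30 without that replicate, and it was 1141-fold lower in Yap/Taz clusters (389.9 to 5538).

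Its neighbour pcdh1g2 (ENSDARG00000101232) had the same arrangement, with 3 reads in Vgll4l clusters, all in replicate 2, none in Yap/Taz clusters and 213 ± 32.8 normalized counts in control clusters. It was 312-fold lower in Vgll4l clusters (106 to 1519) and at least 392-fold lower in Yap/Taz clusters. The next gene of the array, pcdh1g3, had 1 read in the series, in a control library. pcdh2ab5 (ENSDARG00000090348) had 104, 92.5, 98.7 and 126 normalized counts in Vgll4l clusters and no read in any Yap/Taz or control library, so that it was at least 106-fold higher in Vgll4l than in control clusters. The genes before it in the array, pcdh2ab3 and pcdh2ab2, were at 0 in all libraries. The other 6 clustered genes tested had means under 50: pcdh1a3 and pcdh2g16 fell in both knockdowns, pcdh1g11 and pcdh1gb9 rose in Yap/Taz morphants, pcdh1gc6 fell in Vgll4l morphants, and pcdh2g28 fell in Vgll4l morphants and rose in Yap/Taz morphants. The call on pcdh2g28 in Yap/Taz morphants was lost without control replicate 2. With a pseudocount of 10, both calls on pcdh2g28 against control and those on pcdh1g11 and pcdh1gc6 were lost.

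**Figure D5:**
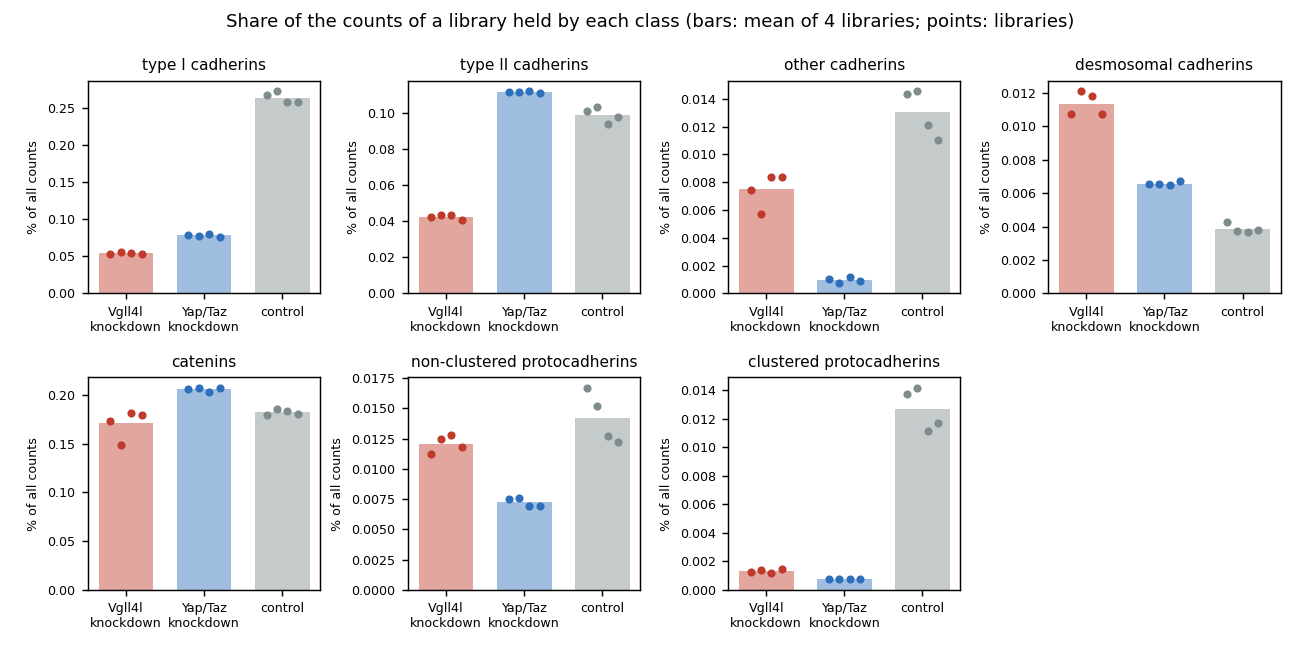
Share of all counts in a library (percent, axes starting at 0) held by each class, with bars at the mean of 4 libraries and 1 point per library, for Vgll4l, Yap/Taz and control from left to right. Type I cadherins, for the most part cdh2, hold 0.0531 to 0.0801% in the knockdown libraries and 0.258 to 0.273% in control libraries. The catenins hold 0.149 to 0.208% and 0.180 to 0.186%.

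Summed over all 97 members, 0.281 to 0.314% of counts fell on these genes in Vgll4l libraries, 0.421 to 0.424% in Yap/Taz libraries and 0.578 to 0.613% in control libraries. In these sums cdh2 alone averaged 4101 of 25793 normalized counts in Vgll4l, 5125 of 30447 in Yap/Taz and 17595 of 41841 in control libraries. Type I cadherins held 0.0531 to 0.0562% in Vgll4l libraries, 0.0762 to 0.0801% in Yap/Taz libraries and 0.258 to 0.273% in control libraries. Most of this was cdh2, with 17595 of 18671 type I counts in control libraries and 4101 of 4646 in Vgll4l libraries. Type II cadherins held 0.0409 to 0.0434% in Vgll4l libraries, 0.111 to 0.112% in Yap/Taz libraries and 0.0940 to 0.103% in control libraries. Most of this was cdh6, with 6334 of 6999 type II counts in control libraries. Clustered protocadherins held 0.00116 to 0.00148% in Vgll4l libraries, 0.000741 to 0.000783% in Yap/Taz libraries and 0.0112 to 0.0142% in control libraries. In control libraries pcdh1g1 and pcdh1g2 averaged 634.5 and 213 of 897 clustered counts, and in Vgll4l libraries pcdh2ab5 averaged 105 of 113. The share of the catenins, 0.149 to 0.182% in Vgll4l libraries and 0.204 to 0.208% in Yap/Taz libraries, overlapped that in control libraries (0.180 to 0.186%) in the Vgll4l case alone, although its makeup differed as described above.

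Of the 5 genes matched by their letters alone, dscr3 (ENSDARG00000075650) had 6.11, 29.3, 4.89 and 5.53 normalized counts in Vgll4l clusters, 729, 722, 675 and 747 in Yap/Taz clusters, and 119.8, 114, 129 and 122 in control clusters. The 3 groups lay apart, with Vgll4l replicate 2 nearest to control. Expression fell by 3.68 on the log2 scale in Vgll4l morphants (standard error 0.39, adjusted p = 6.7e-07) and rose by 2.56 in Yap/Taz morphants (adjusted p = 3.0e-05). dscaml1 (ENSDARG00000098057) fell in both, with 2.28 ± 2.09 in Vgll4l clusters, 18.4 ± 2.79 in Yap/Taz clusters and 72.6 ± 13.2 in control clusters (log2 fold changes -4.66 and -1.92), and dscc1 fell in both at means of at most 9.56. The Vgll4l and control libraries of dscc1 overlapped, and both of its calls were lost with a pseudocount of 10 (-0.70 in Vgll4l morphants and -0.85 in Yap/Taz morphants). dscama rose and dscamb fell in Yap/Taz morphants alone.

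Genes that work with cadherins were counted from lists. Beside these counts, 30.5% of all genes rose and 40.9% fell in Vgll4l morphants, and 30.0% rose and 38.7% fell in Yap/Taz morphants. Of 14 adherens junction partners tested, 11 fell and none passed as higher in Vgll4l morphants (median log2 fold change -2.13). In Yap/Taz morphants 9 fell and 2 rose (-1.91). The medians over all genes were -0.26 and -0.27. Under the threshold, ajuba (log2 fold change 0.84) and magi1b (0.72) were higher in all Vgll4l than in all control libraries. In Yap/Taz morphants both were lower, also under the threshold (-0.90 and -0.31). nectin3b, which encodes an immunoglobulin-type adhesion protein of the same junctions, had 21.6 ± 16.0 normalized counts in Vgll4l clusters, 27.8 ± 5.91 in Yap/Taz clusters and 508 ± 20.4 in control clusters (log2 fold changes -4.71 and -4.17). plekha7a, whose product binds p120 catenin, had 2 reads in Vgll4l clusters, none in Yap/Taz clusters and 70.0 ± 18.5 normalized counts in control clusters. vcla, a vinculin gene, rose in Yap/Taz morphants (63.0 ± 8.56 in Yap/Taz clusters and 18.9 ± 6.80 in control clusters, log2 fold change 1.76) and fell in Vgll4l morphants (1.42 ± 2.83).

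Of 9 desmosome plaque genes, 4 rose and 2 fell in Vgll4l morphants, and 2 rose and 2 fell in Yap/Taz morphants. pkp3a, which encodes a plakophilin of epithelia, rose in both (1744 ± 52.0 in Vgll4l clusters, 746 ± 43.2 in Yap/Taz clusters and 108 ± 24.2 in control clusters). Its relative pkp2 fell in both (2.12 ± 3.65 in Vgll4l, 21.6 ± 1.14 in Yap/Taz and 187 ± 5.60 in control clusters), with a log2 fold change of -6.55 in Vgll4l morphants and of -7.24 without Vgll4l replicate 2. ppl, the periplakin gene, rose in Vgll4l morphants alone, to 2847 ± 73.5 in Vgll4l clusters, against 436 ± 23.5 in control clusters.

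Of 12 atypical cadherins outside the rule (Fat, Dachsous, Celsr and relatives), none rose and 7 fell in Vgll4l morphants, and 5 rose and 5 fell in Yap/Taz morphants. The Dachsous paralogs differed: dchs1b fell in both knockdowns (1.52 ± 0.679 in Vgll4l clusters, 0 in Yap/Taz clusters and 74.7 ± 19.1 in control clusters), while dchs1a fell in Vgll4l morphants (0.944 ± 1.89) and rose in Yap/Taz morphants (164 ± 12.1), against 39.0 ± 10.5 in control clusters. celsr2, of the planar cell polarity pathway, had 3.49 ± 1.74 normalized counts in Vgll4l clusters, 428 ± 16.0 in Yap/Taz clusters and 1.85 ± 1.95 in control clusters.

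Of 14 genes for repressors of E-cadherin known from mammals, 8 rose and 4 fell in Vgll4l morphants, and 5 rose and 6 fell in Yap/Taz morphants. prrx1b and zeb2b rose in Vgll4l morphants, to 77.4 ± 20.5 and 60.6 ± 4.77, and were at 0 in all control libraries. The related genes prrx1a, zeb1a and zeb1b fell in both knockdowns, while zeb2a rose in both. snai1a also rose in both, to 1290 in Vgll4l and 1578 in Yap/Taz clusters against 619 in control clusters (log2 fold changes 1.06 and 1.35). tcf3a rose in Yap/Taz morphants alone, to 267 ± 11.3 against 0.959 ± 0.663 in control clusters. prrx1a averaged 28.6 in Vgll4l, 43.8 in Yap/Taz and 379 in control clusters. The 16 matched genes held 0.0259 to 0.0313% of counts in Vgll4l libraries, 0.0483 to 0.0512% in Yap/Taz and 0.0674 to 0.0699% in control libraries. In control libraries tcf3b averaged 3473 of the 4836 normalized counts of these genes. snai2 rose in both, to 16.3 ± 7.41 in Vgll4l clusters and 106 ± 17.5 in Yap/Taz clusters, against 0.687 ± 0.818 in control clusters, and tcf3b fell in both (483 ± 66.9, 1437 ± 38.5 and 3473 ± 76.7 in Vgll4l, Yap/Taz and control clusters). Of 18 genes of cadherin turnover, 6 rose and 7 fell in Vgll4l morphants, and 4 rose and 8 fell in Yap/Taz morphants. The counts in Vgll4l morphants were near the shares of all genes (30.5% higher, 40.9% lower). cbll1, which encodes the E-cadherin ubiquitin ligase Hakai, rose in both (736 ± 79.5 in Vgll4l clusters, 368 ± 22.1 in Yap/Taz clusters and 75.7 ± 11.6 in control clusters), and adam10a, a sheddase gene, fell in Yap/Taz morphants alone (194 ± 20.9 in Yap/Taz clusters and 1369 ± 88.6 in control clusters).

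Of 21 other genes of the β-catenin pathway, 8 rose and 6 fell in Vgll4l morphants, and 6 rose and 7 fell in Yap/Taz morphants. bcl9, a nuclear partner of β-catenin, rose in both beside ctnnb2, to 119.5 ± 16.8 in Vgll4l clusters and 293 ± 3.78 in Yap/Taz clusters, against 4.19 ± 2.20 in control clusters. The Wnt co-receptor gene lrp5 fell in both (36.4 ± 13.5 in Vgll4l clusters, 15.5 ± 6.07 in Yap/Taz clusters and 182 ± 27.0 in control clusters). gsk3aa, for a kinase of the β-catenin destruction complex, fell in Vgll4l morphants (3.73 ± 2.48 in Vgll4l clusters, 147 ± 16.1 in Yap/Taz clusters and 101 ± 24.2 in control clusters).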

How the data were processed

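RNA was extracted and amplified with the SMART-Seq v4 kit and sequenced as 50-bp single-end reads. The authors aligned reads with STAR to GRCz10, counted them per Ensembl gene with featureCounts and normalized them with DESeq2 (versions not given in the sources used here). The deposited normalized count signal is headed TPM, but 100% of values are whole multiples of 1 step per library (tolerance 0.001 reads), so reads were recovered. The deposited log2 fold changes and adjusted p-values of the authors' own comparisons were not used.

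limma-trend (limma 3.58.1, R 4.3.3) was fitted to log2(normalized count + 1) of the 12 libraries for the 17609 genes that averaged 1 or more, with Benjamini-Hochberg adjustment in each comparison. The fold change of low genes is understated on this scale. The threshold was an adjusted p of 0.05 together with a log2 fold change of 1 in either direction. Groups at 0 get a bound at 3 reads over the group. Groups with 1 to 3 reads get a ratio with an exact 95% interval from reads summed over each group. The fit was tested on simulated data in which 200 of 17609 genes were changed. Far more genes passed in these libraries, so that test does not cover a change of most genes. edgeR 4.0.16 on the recovered reads called 5689 genes higher and 6899 lower in Vgll4l morphants, 5477 and 6707 in Yap/Taz morphants, and 5621 and 5756 in Vgll4l against Yap/Taz morphants. DESeq2 1.42.0, Python 3.11.15, pandas 2.3.3, numpy 2.4.6, scipy 1.17.1 and matplotlib 3.10.9 were also used.

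Members with a mean of at least 50 in a group were named, those of at least 500 with every library. From each list of partner genes up to 2 rises and 2 falls per knockdown were eligible. The listed genes snai1a, zeb1a, zeb2a, ajuba and magi1b were named beyond this rule. Members, classes and lists were chosen with earlier results of these data known. A table of RefSeq names (GRCz12tu) matched 88 of 97 members and served for names and neighbours only. Neighbours were taken from the order of gene starts along a chromosome without regard to strand, and no sequences were used. Alternatives were other pseudocounts, filters, scalings, tests, fold thresholds, a replicate block, a fit without the third group, control libraries averaged in pairs and each library left out.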

Additional observations from a re-analysis of the deposited data

Results flagged for a closer look

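For 4 members the knockdowns moved in opposite directions from the same control libraries, and the knockdowns also differed from each other in limma. Of the other members called in both knockdowns, 4 rose in both and 16 fell in both. The share of opposite calls over all genes was not taken, so these members are not set apart from other genes. The paper also reports opposite changes for a minority of the genes changed in both knockdowns. The difference of Vgll4l minus Yap/Taz clusters on the log2 scale was -6.24 for dscr3 (adjusted p = 3.0e-09), -4.39 for pcdh2g28 (means of 0 in Vgll4l, 20.1 in Yap/Taz and 8.02 in control clusters), -3.84 for pcdh10a (adjusted p = 1.4e-05) and 2.47 for pcdh19 (adjusted p = 1.4e-10). Dixon's test was run on the sets of 4 libraries of a member whose own mean was at least 50. None of these 58 sets held a library flagged as far from its group, for which chance gives about 1 in 20. Sets with lower means were not examined, among them Vgll4l sets in which replicate 2 stood apart. For dscr3 replicate 2 had 29.3 against 4.89 to 6.11 in the other Vgll4l libraries, and for cdh11 10.4 against 1.53 to 1.95.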

How the results depend on the processing

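The number of members that rose or fell stayed within 1.5 times its value under all alternatives but the filter at a mean of 10 normalized counts, which left 35 members. With it 9 rose in Yap/Taz morphants in place of 15, and 11 were lower in Vgll4l than in Yap/Taz clusters in place of 18. With each library left out, 10 to 12 members rose and 22 to 23 fell in Vgll4l morphants, 14 to 15 rose and 22 to 23 fell in Yap/Taz morphants, and 12 to 14 were higher and 17 to 18 lower between the knockdowns. The replicate numbers did not pair libraries (correlations of -0.056 to 0.025), and with the replicate number as a block the counts were again 10 and 22, 15 and 22, and 12 and 18. DESeq2 gave 10 and 22, 15 and 22, and 13 and 18. No call on a named gene was reversed. Some small differences that had not passed changed sign without Vgll4l replicate 2 (cdhr1a also without replicate 4, -0.028). Over all libraries left out in turn, cdhr1a in Vgll4l morphants against control ranged over -0.033 to 0.48, and between the knockdowns pcdh1g1 over -0.50 to 0.77, cdh1 over -0.0068 to 0.079 and cdh4 over -0.20 to 0.48. The depth of the control libraries, 4487894 to 6148871 reads, limits the values of the members under 10 normalized counts.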
